A study of Mus musculus with 2 samples.

Results

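A set of 10 genes of the endoplasmic reticulum (ER) unfolded protein response was followed across T cell states in splenic regulatory T cells (Tregs) with and without the zinc finger protein Zfp335. The genes were Hspa5, Hsp90b1, Calr, Pdia4, Pdia6, Sdf2l1, Dnajb9, Manf, Herpud1 and Xbp1; all 10 were found by symbol among the 32285 features counted. The cells were barcodes with 300 or more genes detected and no more than 5% of UMIs (unique molecular identifiers, each 1 counted RNA molecule) from mitochondrial genes, which left 21820 of 32658 barcodes. The 2 libraries came from the spleens of 7-day-old C57BL/6J mice. The sort took YFP+ cells free of the dead-cell dye 7AAD per the labels, and CD4+ ones per the study's methods, a gate that selects no erythroid, neutrophil or myeloid cells, although clusters of such cells were present. In both genotypes the Foxp3 gene carries YFP fused to Cre behind an internal ribosome entry site, so that YFP and Cre are made where Foxp3 is made. WT mice carry this allele alone, and KO mice (Zfp335fl/flFoxp3-Cre) also carry floxed Zfp335. Each genotype is 1 library, and how many mice were pooled into it is not given in the sources used here. No test between genotypes can therefore be made. Every ratio is given with a 95% interval that covers counting error only, and a gene counts as higher or lower where the larger level exceeds the smaller by 25% or more, a line that says nothing about the spread between mice.

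The unfolded protein response adjusts the folding capacity of the ER to the load of new secreted and membrane proteins. Unfolded protein in the ER lumen draws the chaperone BiP, the product of Hspa5, away from the sensors Ire1, Atf6 and PERK. Ire1 splices Xbp1 mRNA and Atf6 is cut to a transcription factor, and both products raise chaperone and degradation genes, while PERK slows translation and lets Atf4 be made. The pathway is best known from plasma cells and other professional secretors. T cells also engage it when activation raises protein synthesis. Counts per gene do not separate spliced from unspliced Xbp1 mRNA, so Xbp1 is described here by its total level.

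Factors of this response bind short elements near the start of their targets, and these are shown because the 4 genes that follow and Herpud1 carry them, while their levels in the libraries did not move together. The ER stress element, searched as CCAAT, then 9 bases, then CCACG on either strand, was found in 39 of 32851 mouse promoter windows (0.119%) that run from 250 bases before to 50 bases after the RefSeq start (GRCm38.p6). It lies in the windows of Hspa5, Hsp90b1, Calr and Pdia6, which makes 4 of the 9 genes that had a window (Manf had none in the table). The second element, searched as ATTGG, 1 base, CCACG, was found in 12 windows (0.0365%), among them that of Herpud1. The stretches are printed in the direction of the gene, with the matched letters in capitals (for elements on the opposite strand these read CGTGG and ATTGG), and start 65, 107, 162, 98 and 52 bases before the start, counted to the first matched base.
Hspa5, chr2:34772020-34772048, plus strand: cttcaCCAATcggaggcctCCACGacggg
Hsp90b1, chr10:86705528-86705556, minus strand: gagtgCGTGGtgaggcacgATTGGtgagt
Calr, chr8:84847070-84847098, minus strand: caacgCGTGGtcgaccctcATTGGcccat
Pdia6, chr12:17266486-17266514, plus strand: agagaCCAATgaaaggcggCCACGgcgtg
Herpud1, chr8:94386372-94386392, plus strand: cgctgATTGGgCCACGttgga

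Hsp90b1 had a further match 212 bases before its start. The core TGACGTG, to which Atf6 and Xbp1 can bind and which 2.01% of all windows hold, was found in the Hspa5 window 157 bases before the start and in none of the other 8 windows. GENCODE M21 places the outermost start of Hspa5 upstream of the printed stretch, so there it lies within the annotated gene. Xbp1, Pdia4, Dnajb9 and Sdf2l1 held none of these letters in this window. Such a match is a description of sequence and does not show that a factor was bound.

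After 403 WT and 1101 KO barcodes with the highest doublet scores were removed, 7118 WT and 11943 KO barcodes lay in clusters with T cell receptor and Cd3 transcripts. Clusters were made without the 10 genes and without the other ER and heat-shock lists described last. Zfp335 itself was counted at 8.11 CPM (UMIs of the gene scaled to a library total of 1000000) in the WT library and 1.07 CPM in the KO library, a KO:WT ratio of 0.132 (95% interval 0.0979 to 0.174). The states compared were resting Treg-like (2188 WT and 4788 KO barcodes, 7 of 8 resting markers raised), activated Treg-like (398 and 1066), S phase-like (563 and 713) and effector Treg-like (1756 WT but 78 KO barcodes). Of 12 activated markers, 7 were raised in the activated state and 7 in the effector state. The activated state also had 4 of 12 S phase markers raised. The S phase-like state had all 12 S phase markers raised, and 11 of 12 effector markers. A mixed group of 605 WT and 357 KO barcodes, cluster 7, had raised mitotic and effector markers together and is left unnamed. The median barcode held 5019.5 UMIs in the WT library and 2733.5 in the KO library, and 70 barcodes had the same sequence in both. Of the T-lineage barcodes, 3383 KO and 132 WT barcodes of cluster 2 were shallow and led by haemoglobin and neutrophil granule RNA, and clusters 8 and 10 were nearly confined to the KO library with granule RNA leading. Leaving clusters 2, 4, 8, 10, 15 and 16 out of the T-lineage total moved none of the 10 ratios beyond its counting interval.

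The summed level of the 10 genes was 1620 CPM in WT and 1673 CPM in KO T-lineage barcodes, a ratio of 1.03 (1.02 to 1.04). Over all T-lineage barcodes 1 of the 10 genes, Pdia6, was past the 25% line, and it was lower in KO. Of all 10138 genes with 200 UMIs or more, 11.5% were higher and 21.3% lower. The Pdia6 ratio was 0.769 (0.740 to 0.798), but it was 0.871 as a mean of single-barcode CPM and 0.891 with barcodes thinned to 1000 UMIs, both inside the line, while Calr (1.17 in the sums) was at 1.26 and 1.35 and so past the line. Of the 10 ratios 5 were above 1 and 5 below, with a median log2 ratio of 0.06 against -0.06 for all genes. The near-equal sum therefore stood over genes that differed in opposite directions, and over libraries with unlike mixes of states, so each state is described on its own. In such pooled counts, fewer cells that express a gene and less RNA of it per cell cannot be told apart.

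**Figure D1:**
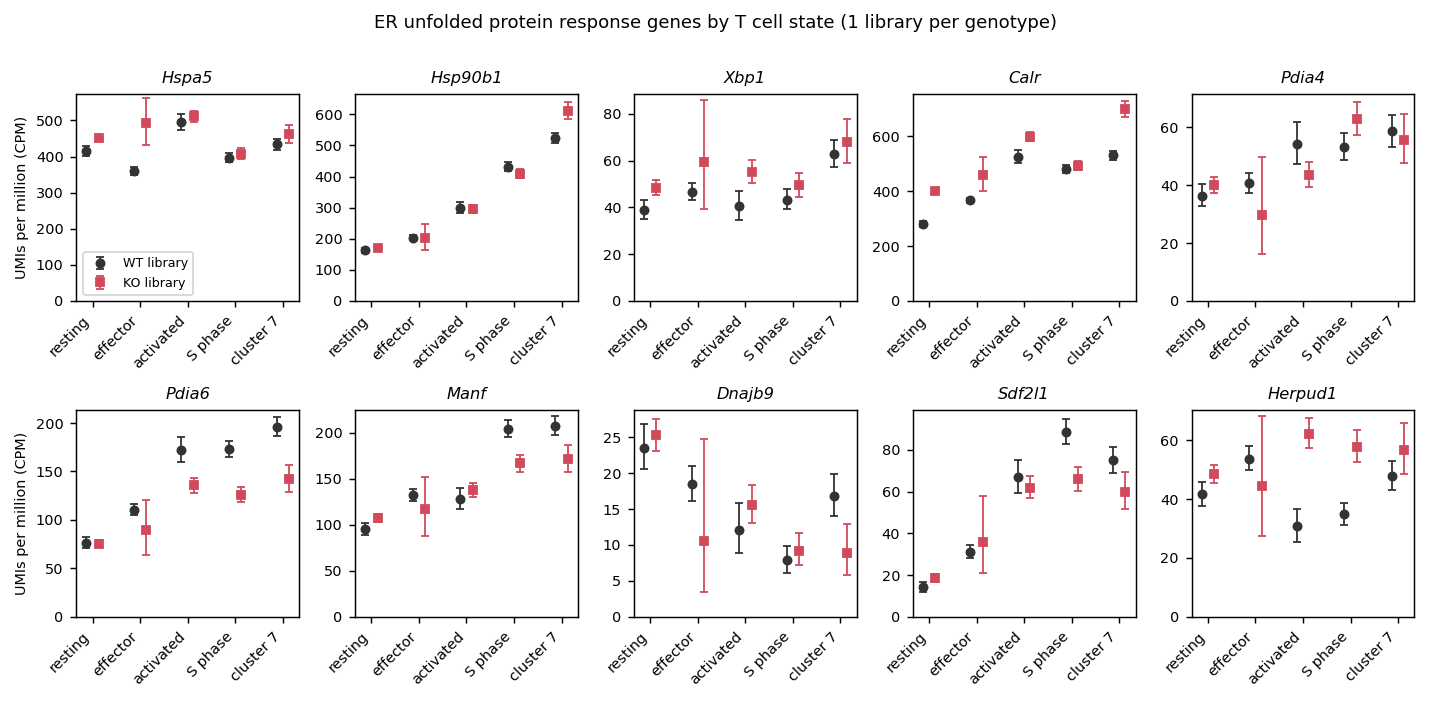
Level of each gene in CPM (vertical axis, from 0) in 5 T cell states of the WT library (black circles) and the KO library (red squares), with exact Poisson 95% intervals of the counts. Calr is higher in KO in the resting state (399 against 281 CPM), Herpud1 is higher in KO in the activated and S phase-like states, and Pdia6 is lower in KO in the same 2 states.

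In resting Treg-like barcodes, Calr stood out. Calr encodes calreticulin, the lectin chaperone that holds newly glycosylated proteins in the ER and binds calcium (chr8:84841850-84846934, minus strand). It was counted at 281 CPM in WT (2729 UMIs) and 399 CPM in KO (8041 UMIs), a ratio of 1.42 (1.36 to 1.49). After each barcode was thinned to 1000 UMIs, 23.2% of WT (21.4% to 25.04%) and 31.5% of KO barcodes (30.2% to 32.8%) held a Calr UMI. Without thinning these shares were 62.4% and 69.9%. In the neutrophil cluster, at median depths of 9203 and 5312 UMIs against 4182.5 and 3767 here, the thinned shares were 10.0% and 8.3%. More KO than WT resting barcodes thus held a Calr UMI at equal depth, in both libraries above the share among neutrophils. Neutrophils were low in Calr, at 111 CPM in WT and 98.0 CPM in KO. Of the other clusters outside the T lineage, cluster 11 was below the resting levels (86.8 and 179 CPM). Clusters 9 (372 and 470 CPM), 14 (509 and 612 CPM) and 12 (892 and 1105 CPM) were above them.

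The other chaperones of the ER lumen differed less in the resting state. Hspa5 (chr2:34771970-34777547, plus strand), which encodes the Hsp70-type chaperone BiP, was at 415 CPM in WT and 451 CPM in KO, a ratio of 1.09 (1.05 to 1.13). The share of thinned barcodes with a Hspa5 UMI was 33.3% in WT (31.3% to 35.3%) and 34.7% in KO (33.3% to 36.0%), and these intervals overlap. Hsp90b1 (chr10:86690209-86705509, minus strand), the ER member of the Hsp90 family, was at 163 and 172 CPM, a ratio of 1.05 (0.992 to 1.12). Both counting intervals lie inside the 25% band, so neither chaperone differed as Calr did, although all 3 promoter windows hold the ER stress element. The disulfide isomerases Pdia4 (chr6:47796141-47813430, minus strand) and Pdia6 (chr12:17266545-17284770, plus strand), which make and rearrange disulfide bonds, had ratios of 1.10 (0.970 to 1.251) and 0.991 (0.907 to 1.08).

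The cochaperones and the regulators of the response were mostly slightly above 1 in resting barcodes. Sdf2l1 (chr16:17130138-17132383, minus strand) is part of a BiP cochaperone complex. It was counted at 14.1 CPM in WT (137 UMIs) and 18.5 CPM in KO (372 UMIs), a ratio of 1.31 (1.07 to 1.61). In the finer clusters that lie mostly in this state, described further on, its ratio was 1.42, 1.00, 1.00 and 1.07, each with an interval that includes 1. Dnajb9 (chr12:44205559-44210326, minus strand), the BiP cochaperone that returns BiP to Ire1, had a ratio of 1.07 (0.916 to 1.26). Manf (chr9:106838312-106891979, minus strand), a secreted protein retained in the ER and released on stress, had a ratio of 1.13 (1.04 to 1.22). Herpud1 (chr8:94386438-94395377, plus strand), a membrane protein of the ER-associated degradation complex, had a ratio of 1.17 (1.04 to 1.31). Xbp1 (chr11:5520659-5525893, plus strand), the transcription factor of the Ire1 branch, was at 38.9 CPM in WT and 48.5 CPM in KO, and its ratio of 1.246 (1.11 to 1.41) fell just short of the line. In the finer clusters that lie mostly in the resting state it was 1.08, 0.868, 1.10 and 1.07, each with an interval that includes 1.

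In the resting state 2 of the 10 genes (Calr and Sdf2l1) were higher past the 25% line and 0 lower, beside 8.53% of all 7929 tested genes higher and 21.3% lower. Of the 10 ratios 9 were above 1, and the median log2 ratio was 0.16 against -0.05 over all tested genes. The summed level was 1185 CPM in WT and 1386 CPM in KO, a ratio of 1.17 (1.14 to 1.20). Calr, at 281 and 399 CPM, gave more of this difference than any other of the 10 genes. The 8 erythroid markers summed to 472 CPM in WT and 1032 CPM in KO resting barcodes and the 8 neutrophil markers to 341 and 226 CPM. The 8 macrophage markers, of which 7 were detected, summed to 22.9 and 18.4 CPM. When only the barcodes at or below the median share of haemoglobin and granule UMIs were kept, the Calr ratio was 1.47 and the Sdf2l1 ratio 1.51.

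**Figure D2:**
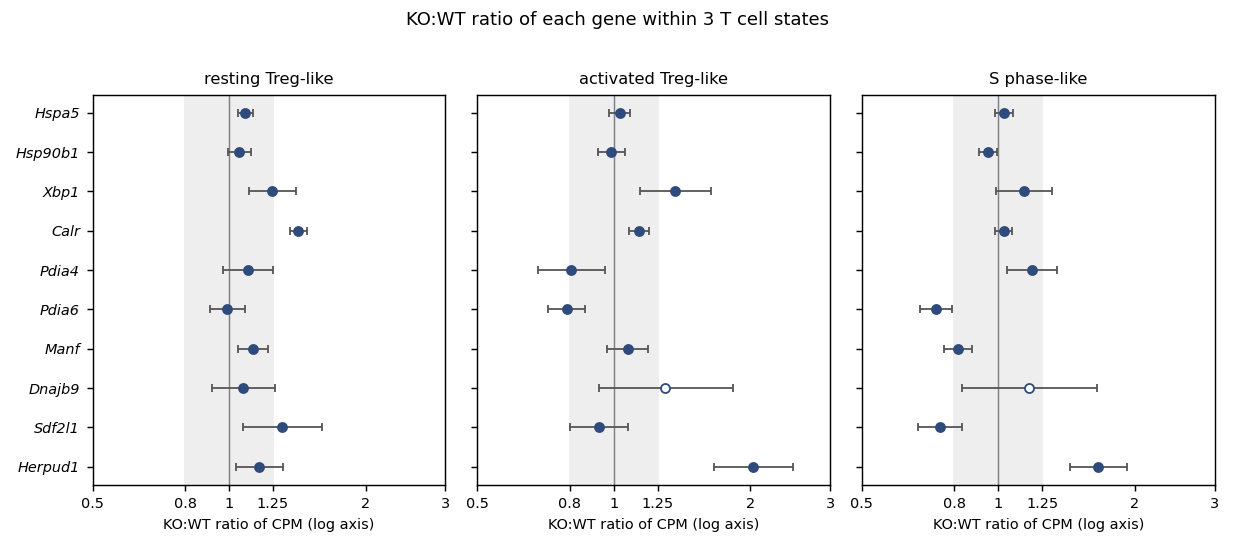
KO:WT ratio of CPM (horizontal log axis) for each of the 10 genes in resting Treg-like, activated Treg-like and S phase-like barcodes, with exact conditional 95% intervals (counting error only), the band of differences under 25% in grey, and open circles where a gene had under 200 UMIs. Calr is to the right of the band in the resting state, and Herpud1 in the activated (2.03) and S phase-like (1.66) states, where Pdia6 is to the left of it.

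In activated Treg-like barcodes the widest difference was that of Herpud1. Other markers moved there too: from WT to KO the effector Treg markers summed to 1587 and 1009 CPM, the resting Treg markers to 812 and 1176 CPM and the erythroid markers to 374 and 776 CPM, and their part in the differences was not tested. It was counted at 30.7 CPM in WT (125 UMIs) and 62.2 CPM in KO (559 UMIs), a ratio of 2.03 (1.67 to 2.48). At 1000 UMIs per barcode, 2.27% of WT (1.04% to 4.27%) and 6.04% of KO barcodes (4.68% to 7.65%) held a Herpud1 UMI, with 24.9% and 32.8% unthinned. These thinned intervals do not overlap, but the WT share is close to the 2.22% and 3.57% of neutrophil barcodes. Herpud1 is induced through Atf4 as well as through the Ire1 and Atf6 branches.

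Xbp1 was also past the line in the activated state, at 40.5 CPM in WT and 55.3 CPM in KO, a ratio of 1.37 (1.14 to 1.64). Pdia6 went the other way, from 172 CPM in WT to 136 CPM in KO, a ratio of 0.787 (0.717 to 0.865). Pdia4 was just inside the band at 0.806 (0.681 to 0.955), and Calr at 1.14 (1.08 to 1.20). Hspa5 (1.03), Hsp90b1 (0.987), Manf (1.07) and Sdf2l1 (0.927) had intervals that include 1. Of the 9 genes tested, 2 were thus higher and 1 lower, beside 10.5% and 16.5% of all tested genes, while Dnajb9 had under 200 UMIs. With barcodes thinned to 1000 UMIs the Xbp1 ratio was 1.00, those of Sdf2l1, Calr and Manf 1.43, 1.32 and 1.41, that of Pdia6 0.696 and that of Herpud1 2.47. Of the 3 differences past the line, those of Herpud1 and Pdia6 thus stood at equal depth, and that of Xbp1 did not.

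In S phase-like barcodes, which carry DNA replication transcripts and had all 12 mitotic markers raised beside all 12 S phase markers, Herpud1 was again higher in KO. It was at 34.8 CPM in WT (323 UMIs) and 57.8 CPM in KO (446 UMIs), a ratio of 1.66 (1.44 to 1.92). Pdia6 (173 against 126 CPM, 0.728, 0.672 to 0.789) and Sdf2l1 (88.6 against 65.9 CPM, 0.743, 0.664 to 0.831) were lower in KO. Manf was at 0.816 (0.760 to 0.876) and Pdia4 at 1.18 (1.04 to 1.34), both inside the band, and Hspa5, Calr and Hsp90b1 lay between 0.948 and 1.03. Of 9 tested genes 1 was higher and 2 lower, beside 17.3% and 15.3% of all tested genes.

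The S phase-like state was not the same mix in both libraries. Its 12 effector Treg markers summed to 4839 CPM in WT and 1456 CPM in KO, and its S phase markers to 7550 and 4120 CPM. The mitotic markers summed to 4266 and 4638 CPM, so that in KO they exceeded the S phase markers, and the erythroid markers to 301 and 1470 CPM. In a finer clustering, the S phase-like cluster with the most barcodes of both libraries (166 WT and 707 KO) had effector sums of 1371 and 1283 CPM. There the Pdia6 ratio was 0.962 (0.830 to 1.12), the Sdf2l1 ratio 0.914 (0.749 to 1.12) and the Manf ratio 1.13 (0.982 to 1.30), so none of the 3 was lower past the line. Herpud1 kept a ratio of 1.67 (1.27 to 2.22), while Xbp1 was at 1.76 (1.30 to 2.42) on 49 WT UMIs and Pdia4 at 1.42. In this finer cluster Pdia6 and Sdf2l1 were thus inside the band, while Herpud1 was past it. The cluster held 166 WT barcodes against 563 in the state, and its erythroid markers summed to 405 CPM in WT and 1489 CPM in KO. The part of the effector markers in these ratios was not tested.

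Across all 10 finer clusters with 50 or more T-lineage barcodes in both libraries, Calr had a ratio above 1 in 10 of 10, from 1.12 to 1.45, and was past the 25% line in 5. The 4 finer clusters that lie mostly in the resting state gave Calr ratios of 1.29, 1.36, 1.45 and 1.42. The cluster at 1.45 held 2822 WT Calr UMIs, more than the 2729 of all WT resting barcodes, so it also took in other barcodes. These clusters are therefore not a split of the resting state alone. Herpud1 was above 1 in 8 of the 8 clusters with 200 UMIs or more, from 1.10 to 1.98, and past the line in 5. Of these 5, the finer cluster mostly in cluster 2 (1.70, 0.718 to 5.27) rested on 5 WT UMIs. Another, mostly in the resting state (1.27, 0.752 to 2.31), rested on 15 WT UMIs. In the 4 finer clusters mostly in the resting state the Herpud1 ratios were between 1.10 and 1.27, each with an interval that includes 1. These were below the 1.98 and 1.67 of the activated and S phase-like finer clusters. They were also below the 1.51 of a finer cluster mostly in cluster 7 (164 WT barcodes, against 605 in all of cluster 7). Over the whole of cluster 7 the Herpud1 ratio was 1.19 (0.984 to 1.43), inside the band. Pdia6 was lower past the line in 3 of 8 and higher in 0, and Sdf2l1 higher in 1 and lower in 1 of 4. Xbp1 was higher past the line in 2 of 8, the activated and S phase-like clusters, and lower in 0. Calr and Herpud1 were thus the 2 genes with a ratio above 1 in every finer cluster in which they were tested. All 10 clusters come from the same 2 libraries and are not replicates, so a difference between the libraries as a whole would recur in each. The share of all genes with such counts was not calculated.

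**Figure D3:**
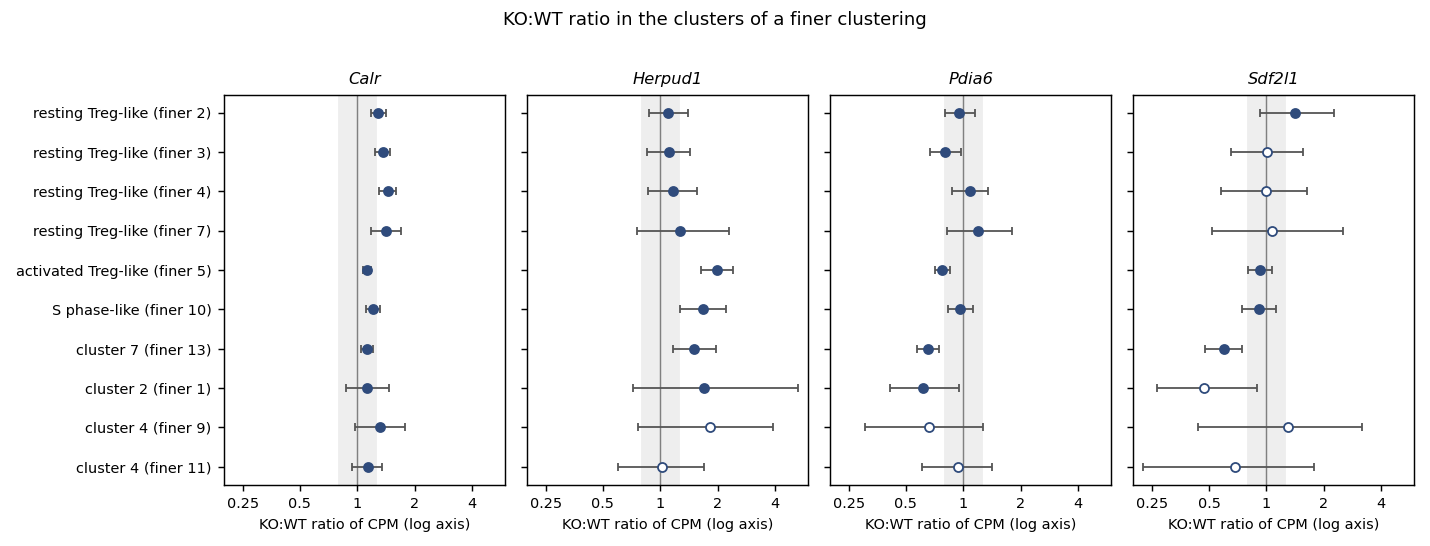
KO:WT ratio of CPM (horizontal log axis) of Calr, Herpud1, Pdia6 and Sdf2l1 in the 10 clusters of a finer clustering, each row named by the state that holds most of it, with 95% counting intervals, the band of differences under 25% in grey and open circles under 200 UMIs. All Calr points are to the right of 1, Herpud1 is farthest right in the activated cluster (1.98), and Pdia6 is farthest left in clusters 2 and 7.

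The effector Treg-like state and cluster 7 were compared for these genes too, with fewer barcodes. In the 78 KO effector barcodes Hspa5 was at 494 CPM (233 UMIs) against 361 CPM in WT, a ratio of 1.37 (1.20 to 1.56), and Calr at 458 against 366 CPM, a ratio of 1.252 (1.09 to 1.43). The other 8 genes rested on 96 KO UMIs or fewer, and their intervals all include 1. In cluster 7 Calr was at 699 CPM in KO and 531 CPM in WT (1.32, 1.249 to 1.39) and Pdia6 at 142 against 196 CPM (0.726, 0.651 to 0.808). Sdf2l1 was lower in KO there too (0.799, 0.673 to 0.945). Of 9 tested genes 1 was higher and 2 lower, beside 18.6% and 20.6% of all tested genes. The effector markers of cluster 7 summed to 2476 CPM in KO and 6930 CPM in WT, and its mitotic markers to 5225 and 2764 CPM. Calr was thus past the line in the resting, effector and cluster 7 barcodes, and Pdia6 lower past it in cluster 7 as in the activated and S phase-like states.

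Some of these differences were also seen outside the T lineage. Cluster 12 (107 WT and 109 KO barcodes) was led by myeloid progenitor genes. All 8 markers each of neutrophils, macrophages and mast cells or basophils were raised there too. In WT and KO these summed to 10718 and 3106, 4323 and 2802, and 1665 and 269 CPM. Calr was at 892 CPM in WT and 1105 CPM in KO (1.24, 1.16 to 1.32), Sdf2l1 had a ratio of 1.30 (1.09 to 1.55) and Herpud1 of 1.44 (1.09 to 1.91). Of 9 tested genes 2 were higher and 0 lower, beside 6.51% and 10.9% of all tested genes. The part of the unlike mix was not tested. In cluster 9 (206 and 322 barcodes), outside the T lineage, Calr had a ratio of 1.27 (1.15 to 1.40). In cluster 9 Zfp335 itself was lower in KO, at 6.20 CPM in WT (14 UMIs) and 1.246 CPM in KO (2 UMIs). In the progenitors it was at 8.55 CPM in WT (16 UMIs) and 4.67 CPM in KO (9 UMIs). The separate Poisson intervals of WT and KO overlap in each case, but the interval of the KO:WT ratio is not given here. Such overlap does not show that Zfp335 was equal in both libraries. With 1 library for each genotype, the genotype, the animals and the handling of the library cannot be told apart.

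The second question was how the 10 genes vary between states within a library, where genotype plays no part. In WT activated Treg-like barcodes 6 of the 10 genes were higher than in resting ones and 2 lower, beside 29.3% of all tested genes higher and 35.4% lower. Sdf2l1 was highest in ratio, at 66.8 CPM against 14.1 CPM (4.74, 3.84 to 5.86). Pdia6 followed with 172 against 76.3 CPM (2.26, 2.04 to 2.51), then Calr (1.87), Hsp90b1 (1.84), Pdia4 (1.49) and Manf (1.35). Hspa5 was at 1.19 (1.13 to 1.26) and Xbp1 at 1.04 (0.862 to 1.254). Hspa5 and Xbp1 were thus the 2 genes inside the band, and a BiP cochaperone was farthest outside it.

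Dnajb9 and Herpud1 were lower in WT activated than in resting barcodes. Dnajb9 went from 23.6 to 12.03 CPM (0.510, 0.367 to 0.698), on 49 UMIs in the activated state, and Herpud1 from 41.6 to 30.7 CPM (0.738, 0.599 to 0.904). In the KO library Dnajb9 was lower as well (0.616, 0.508 to 0.745), but Herpud1 was higher, at 62.2 against 48.5 CPM (1.28, 1.15 to 1.43). In KO 6 genes were higher and 1 lower, beside 26.3% and 33.4% of all tested genes. Sdf2l1 (3.35), Pdia6 (1.80), Hsp90b1 (1.72), Calr (1.499) and Manf (1.28) were higher in both libraries, each with a smaller ratio in KO. Herpud1 was the 1 gene of the 10 whose order between the activated and resting states was opposite in the 2 libraries, and it stayed on the same side of 1 in each library under all 9 alternative settings (0.597 to 0.866 in WT and 1.14 to 1.55 in KO). The Manf ratio in WT was 0.984 with barcodes thinned to 1000 UMIs, and 1.20 in KO.

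S phase-like barcodes repeated most of this order. The effector markers summed to 4839 CPM in WT S phase-like and 1125 CPM in WT resting barcodes, and their part in these ratios was not tested. In WT, Sdf2l1 was 6.29-fold its resting level (5.24 to 7.59), Hsp90b1 2.65-fold (2.50 to 2.81), Pdia6 2.27-fold and Manf 2.15-fold, and Calr and Pdia4 were at 1.71-fold and 1.46-fold (Pdia4 1.10-fold with barcodes thinned to 1000 UMIs). Dnajb9 was lowest, at 7.86 CPM against 23.6 CPM (0.334, 0.253 to 0.436). In all 6 genes were higher and 1 lower, beside 31.3% and 35.7% of all tested genes. In KO 5 were higher and 1 lower, beside 27.7% and 30.4%, with Sdf2l1 at 3.56 (3.11 to 4.08) and Dnajb9 at 0.364 (0.280 to 0.467). Calr was inside the band there (1.23, 1.19 to 1.28), next to its higher resting level in that library.

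In WT effector Treg-like barcodes the ratios to the resting state were smaller than in activated ones for Sdf2l1, Pdia6, Calr, Hsp90b1, Pdia4 and Hspa5, and larger for Manf, Herpud1, Xbp1 and Dnajb9. Sdf2l1 was at 2.21 (1.81 to 2.70), Pdia6 at 1.45, Manf at 1.38, Calr at 1.30, Herpud1 at 1.29 and Hsp90b1 at 1.253, while Dnajb9 was at 0.782 and Hspa5 at 0.869. That made 6 genes higher and 1 lower, beside 20.5% and 19.3% of all tested genes. Herpud1 was above its resting level there (53.7 against 41.6 CPM), unlike in WT activated barcodes. In the 78 KO effector barcodes 1 gene was higher than in KO resting barcodes and 2 lower, beside 23.1% and 23.8% of all tested genes. These were Sdf2l1 (1.95, 1.12 to 3.17) on 17 effector UMIs, and Pdia4 and Dnajb9 on 14 and 5, while Herpud1 was at 0.919 (0.566 to 1.41). Whether the effector ratios differ between the libraries was not tested.

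**Figure D4:**
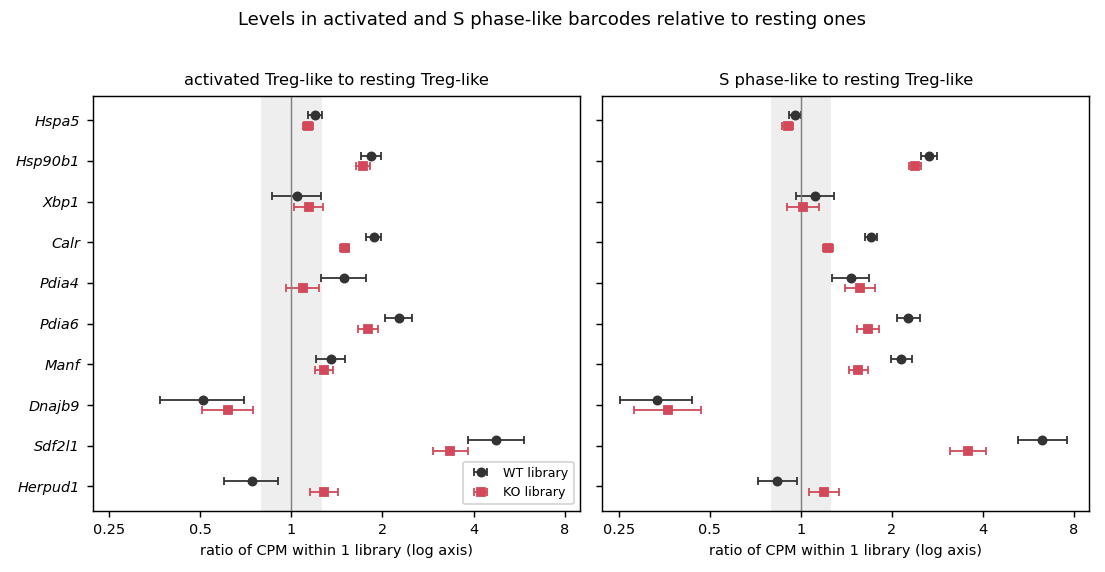
Ratio of CPM in activated Treg-like (left) and S phase-like (right) barcodes to resting Treg-like barcodes of the same library (horizontal log axis) in the WT library (black circles) and the KO library (red squares), with 95% counting intervals and the band of differences under 25% in grey. Sdf2l1 is farthest right, Dnajb9 is left of the band in both libraries, and Herpud1 is left of it in activated WT (0.738) and right of it in activated KO barcodes (1.28).

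The genes did not vary as 1 block. Over 16 T-lineage pseudobulks (cluster by library, 50 or more barcodes), Hspa5 ranged over 1.78-fold, from 352 to 626 CPM, while Sdf2l1 ranged over 6.29-fold and Dnajb9 over 6.56-fold. Across these pseudobulks, which share 2 libraries and differ in depth, Hsp90b1 and Calr had a Pearson correlation of 0.839 and 0.831 with the mean of the other 9 genes, Sdf2l1 0.778 and Pdia6 0.696. Hspa5 had 0.103, Herpud1 -0.0885 and Dnajb9 -0.411. Among 5313 genes ranked, those whose pattern was most like the mean of the 10 were Sdhc (r = 0.888), Snrpc (0.874), Psmc1 (0.873), AI662270 (0.862), Pop4 (0.855), Rps27l (0.844), Eif2b5 (0.842), Yif1b (0.837), Magoh (0.834) and Uqcrq (0.831), and none of the 10 is in the ER lists.

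As the libraries differ in their states, the levels were also set to the WT mix. Resting barcodes gave 21.4% of WT and 43.4% of KO UMIs of the 7 states compared, and effector barcodes 28.4% and 1.02%. With the KO states weighted as in WT, Pdia6 had a ratio of 0.782 (0.721 to 0.849), Calr 1.22 (1.17 to 1.27) and Xbp1 1.20 (1.06 to 1.37). Hsp90b1 moved from 0.920 to 1.04 (0.996 to 1.09) and Dnajb9 from 1.15 to 0.905 (0.738 to 1.11), both with intervals that include 1. The WT mix gives 28.4% of the weight to the 78 KO effector barcodes, which held 5 Dnajb9 UMIs. Pdia6 was thus lower past the line at either mix of these states. Such weighting does not even out differences inside a state, and the effector markers of the S phase-like state differed between the libraries. Pdia6 was at 0.991 in resting barcodes and 0.962 in the finer S phase-like cluster. In the 4 finer clusters mostly in the resting state it was at 0.955, 0.803 (0.666 to 0.968), 1.09 and 1.20.

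The surrounding ER machinery was described by lists of genes with known roles. Together with the 10, these held 82 genes, of which 79 had 200 UMIs or more over all T-lineage barcodes, and 5 were higher and 17 lower in KO. Of 19 tested other ER folding genes 2 were higher and 5 lower, with the oxidase Ero1lb at 0.590 (0.470 to 0.739) and the disulfide isomerase Txndc5 at 0.620 (0.564 to 0.681). Of 16 translocon and signal peptidase genes 1 was higher and 5 lower, with Sec11c, a catalytic subunit of the signal peptidase, at 180 CPM against 315 CPM in WT (0.570, 0.555 to 0.585). Of 10 oligosaccharyl transferase genes 1 was higher and 1 lower, the latter being Rpn1 at 0.565 (0.535 to 0.596). Of 17 ER-associated degradation genes 0 were higher and 2 lower, with the mannosidase-like Edem3 at 0.612 (0.499 to 0.748). Over these lists together, the share of lower genes was close to the 21.3% of all genes, and the share of higher genes was under the 11.5%. These values pool unlike mixes of states. In resting barcodes alone, 1 of 17 tested other ER folding genes was higher and 3 lower. For the translocon list it was 0 and 3 of 16, beside 8.53% and 21.3% of all genes tested there. Txndc5 was at 0.938 (0.765 to 1.16) and Sec11c at 0.787 (0.741 to 0.836) there, while Rpn1 was at 0.616 (0.547 to 0.693). The part of the mix of states was not tested.

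Among the sensors and their processing, 1 of 7 tested genes was higher and 3 lower, beside 11.5% and 21.3% of all tested genes. Eif2ak3, which encodes PERK, was at 5.31 CPM in WT and 3.17 CPM in KO (0.596, 0.483 to 0.733), and Creb3l2, an Atf6-like factor of the secretory pathway, at 0.579 (0.489 to 0.686). Of 10 cytosolic heat-shock genes 2 were higher and 1 lower, beside the same shares of all genes, with Hspa1a at 1.70 (1.52 to 1.90) and the cochaperone Bag3 at 0.404 (0.298 to 0.542). Plasma cell markers had 2 tested genes, of which Prdm1, also made by effector Tregs, was at 0.252 (0.201 to 0.315). Tnfrsf17 was at 0 and Jchain was counted 1 time in WT and 2 times in KO T-lineage barcodes, so 2 defining markers of plasma cells, in which the response is strong, were at or near 0. Of the other markers Sdc1 was counted 5 times in WT and 2 times in KO, and Mzb1 16 and 72 times.

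The list of PERK and Atf4 targets differed from the other lists. Of 13 tested genes 10 were higher in KO over all T-lineage barcodes and 0 lower, beside 11.5% and 21.3% of all tested genes, with a median log2 ratio of 0.67 against -0.06 for all. Trib3, a pseudokinase induced by Atf4, was at 1.69 CPM in WT and 10.6 CPM in KO (6.26, 4.91 to 8.06). Atf5 (3.49), the asparagine synthetase gene Asns (3.21), the serine pathway gene Shmt2 (1.94), Sesn2 (1.91), the proapoptotic factor Ddit3 (1.81) and Atf4 itself (99.6 against 158 CPM, 1.59) were past 1.5-fold. Atf4 protein can also be made through kinases other than PERK, in response to amino acid shortage or mitochondrial stress, and gene counts do not show which kinase acted.

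Within states the same list was higher too, beside members of the response that were not. In the activated state 11 of 11 tested genes were higher, beside 10.5% of all tested genes there, with a median log2 ratio of 0.86, and Atf4 was at 94.1 CPM in WT and 189 CPM in KO (2.01, 1.80 to 2.26). Asns was at 3.15 (2.55 to 3.93) and Ddit3 at 2.54 (1.95 to 3.36) there, while Hspa5 was at 1.03 and Hsp90b1 at 0.987. In S phase-like barcodes 9 of 10 were higher, beside 17.3% of all, with Atf4 at 1.74 (1.60 to 1.89) and Ddit3 at 2.82 (2.31 to 3.46). In the resting state 6 of 11 were higher, beside 8.53% of all, with Atf4 at 1.29 (1.20 to 1.39) and Atf5 at 2.95 (1.98 to 4.53), while Ddit3 was at 1.16 (1.03 to 1.31).

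**Figure D5:**
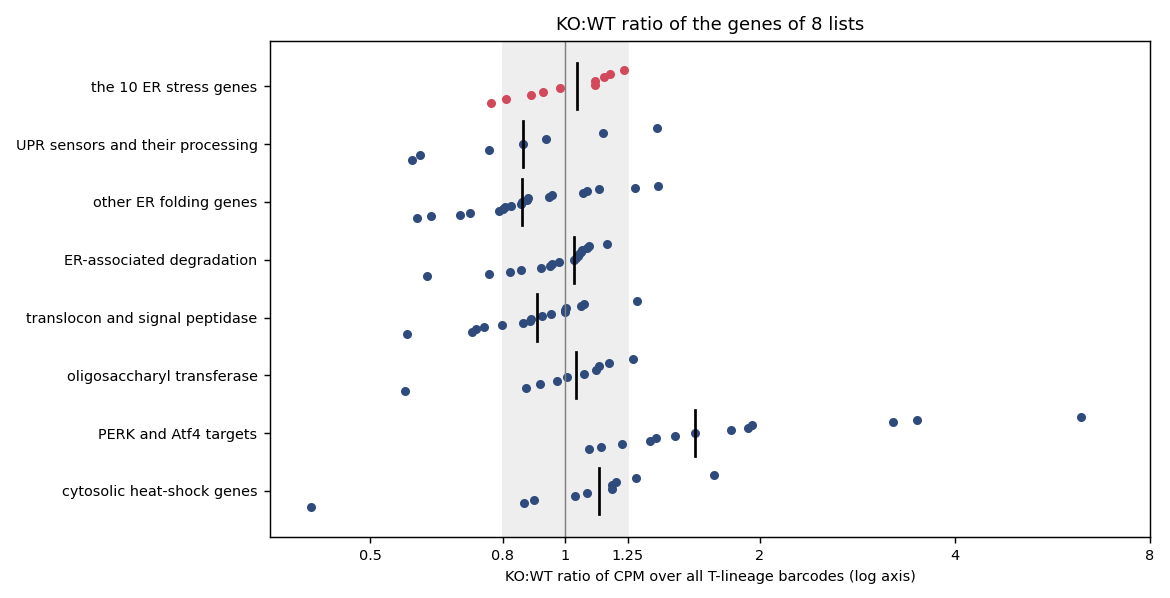
KO:WT ratio of CPM over all T-lineage barcodes (horizontal log axis) for the 10 genes (red) and for 7 lists of other genes (blue), each point 1 gene with 200 UMIs or more, the black bar the median of the list and the grey band differences under 25%. The 10 genes lie between 0.769 and 1.23, and the PERK and Atf4 targets between 1.09 and 6.26.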

How the data were processed

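Single-cell RNA-Seq was performed by the study on the 10x Genomics platform, with 1 library for each genotype. The authors made the deposited counts (raw UMI counts per gene and barcode, not normalized) with Cell Ranger 5.0.1 on the mm10 genome, per the submitters' processing notes. The totals were 64567991 UMIs (WT) and 65480052 UMIs (KO). The gene set and the lists were chosen with earlier results of these data known. The rule kept barcodes with 300 or more genes and no more than 5% of UMIs from mitochondrial genes, and the top 5% (WT) and 8% (KO) by Scrublet score were removed as likely doublets (the study used DoubletFinder, and its methods give these rates in the reverse order; keeping all doublets was an alternative). Clustering used scanpy 1.11.5 (2000 variable genes, 30 components, 20 neighbours, Leiden resolution 0.5, alternative 1.0), leaving out 159 genes (the ER and heat-shock lists, haemoglobin, granule, mitochondrial, sex-linked and ribosomal RNA-like genes and Zfp335). States were named from marker lists, and a cluster counted as T-lineage where its mean Cd3 and T cell receptor level was at least 50% of the median cluster's.

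UMIs were summed over the barcodes of a state and library and scaled to CPM, with exact Poisson intervals. Ratios have exact conditional binomial intervals and shares Clopper-Pearson intervals, all at 95% and for counting error only. A gene was tested with 200 UMIs or more over both groups and called where the larger level exceeded the smaller by 25%. Named genes were the 10, list genes past 1.5-fold over all T-lineage barcodes (else the highest and lowest), the 10 genes closest to the mean pattern, Zfp335 and markers. The calculation was checked on simulated data. Gene positions are from GENCODE M21 (GRCm38) and promoter windows from RefSeq (GRCm38.p6), which had 9 of the 10 genes. Alternatives were doublets kept, 10% mitochondrial UMIs, 500 genes, single-barcode means, thinning to 1000 UMIs, totals without haemoglobin, granule, mitochondrial and ribosomal genes, median-ratio scaling, finer clusters, 1.5-fold and 50 UMIs.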

Additional observations from a re-analysis of the deposited data

Results flagged for a closer look

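The KO:WT ratio of Sdf2l1 lay on opposite sides of 1 in different states. It was 1.31 in resting Treg-like barcodes, 0.743 in S phase-like barcodes and 0.799 in cluster 7, and the difference between states was not tested, as each genotype is 1 library. The 12 effector Treg markers summed to 1125 CPM in WT and 1036 CPM in KO in the resting state, but to 4839 and 1456 CPM in the S phase-like state and 6930 and 2476 CPM in cluster 7. In the finer S phase-like cluster, with effector sums of 1371 and 1283 CPM, the ratio was 0.914 (0.749 to 1.12). In the finer clusters that lie mostly in the resting state it was 1.42, 1.00, 1.00 and 1.07, each with an interval that includes 1. The part of the effector markers in this pattern was not tested.

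The ratio of Herpud1 in activated to resting Treg-like barcodes was 0.738 in the WT library and 1.28 in the KO library, so the gene was lower in activated barcodes of one library and higher in those of the other. This difference was not tested either. The ratio passed the 25% line in both libraries in the UMI sums, but in WT it was 0.866 in the finer clustering and in KO 1.14 as a mean of single-barcode CPM, both inside the band.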

How the results depend on the processing

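Over 80 single ratios and up to 9 alternatives each, 658 of 710 values stayed on the same side of the 25% lines, 52 crossed one and 0 went from one side to the other. The alternatives added after seeing the data (the barcodes with the least haemoglobin and granule RNA, and the T-lineage total without 6 clusters) moved 12 of 70 and 0 of 10 values beyond their counting intervals. The finer clustering moved 44 of 70 values, thinning to 1000 UMIs 40 of 80 and single-barcode means 24 of 80. Totals without haemoglobin, granule, mitochondrial and ribosomal genes moved 12 of 80 and median-ratio scaling 8 of 80. Doublets kept, 500 genes and 10% mitochondrial UMIs moved 0. With barcodes thinned to 1000 UMIs (396 WT activated barcodes), Manf in WT activated against resting barcodes turned from 1.35 to 0.984, the 1 called value that crossed 1, and the median log2 ratio of the 10 genes in WT S phase-like against resting barcodes went from 0.66 to 0.30. With single-barcode means the KO to WT median over all T-lineage barcodes went from 0.06 to 0.13. In the finer clustering the KO to WT median in the S phase-like state went from 0.04 to 0.18, and in KO the medians against the resting state went from 0.36 to 0.72 (activated) and from 0.47 to 0.75 (S phase-like). At 1.5-fold, 0 in place of 5 ER list genes were higher and 7 in place of 17 lower, as a stricter line must give fewer, and a minimum of 50 UMIs left both counts within 1.5 times. The finer clustering gives no other T-lineage total. The cause of the other moves was not tested. No paired analysis was possible because each genotype is 1 library. Depth limits Dnajb9 most, with under 200 UMIs in 2 of the 3 main states.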
